A study of Homo sapiens with 2 samples.

Results

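All 10 genes for RNA polymerase I and its initiation factors were expressed in HEK293T cells, at levels that spanned 11.1-fold on the TPM scale. TAF1D, a subunit of the promoter selectivity factor SL1, stood highest at 160 ± 4.37 TPM (SD, n = 2), and TAF1A, another subunit of the same factor, stood lowest at 14.4 ± 0.0707 TPM. TPM is a level scaled for transcript length and for the total of the library. When counts were divided by the longest annotated transcript instead, UBTF led and the span was 5.98-fold, and in raw counts POLR1A led with 21.8-fold. The 4 polymerase subunit genes among the 10 lay much closer together, between 40.3 and 62.9 TPM, although 4 further subunit genes ranged from 19.8 to 101 TPM. None of the 10 genes differed between the libraries in an exact binomial test after adjustment, beside 3.86% of the 17920 genes tested.

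The genes were POLR1A, POLR1B, POLR1C, POLR1E, UBTF, RRN3, TAF1A, TAF1B, TAF1C and TAF1D. They were chosen by symbol, each matched 1 row in the table of both libraries, and they were 10 of 57736 genes in these tables. Poly(A)+ RNA was measured by sequencing of 50 bp reads in 2 libraries of 1 group. Both libraries came from HEK293T cells of wild type genotype, grown without treatment in DMEM with 10% FBS with 5% CO2 and at 37 °C, up to a confluency of 80%. HEK293T cells descend from human embryonic kidney tissue and express a viral large T antigen. It is 1 cell line, and the labels do not say whether the replicates were separate cultures, so the differences between replicates given here may be technical.

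RNA polymerase I transcribes only the ribosomal RNA genes (rDNA), which lie in tandem clusters and supply the precursor of most rRNA. Its largest subunits, encoded by POLR1A and POLR1B, form the catalytic centre. POLR1C is an assembly subunit that RNA polymerase III also uses, and POLR1E belongs to a heterodimer found in polymerase I. At the promoter, UBTF encodes the HMG-box protein UBF, which binds along rDNA. SL1 recognizes the core promoter and holds TBP together with the TAF1A, TAF1B, TAF1C and TAF1D proteins. RRN3 encodes TIF-IA, which links the polymerase to SL1. Cultured cells make rRNA at a high rate while they grow. The RNA measured here is the poly(A)+ message for these proteins and not rRNA itself.

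The libraries held 10593491 and 10104118 estimated counts, a difference of 1.05-fold. The kidney label was checked on 10 markers of mature tubule and podocyte, of which 1 was detected, the endocytic receptor LRP2 at 9.12 TPM, and 5 had 0 counts in both libraries. Of 4 matched markers of embryonic kidney 3 were detected, the nephron progenitor factor SIX2 at 33.3 TPM, WT1 at 10.2 TPM and PAX2 at 3.4 TPM. PAX8 was not, with 0 and 1 counts. Of 4 fibroblast markers 1 was detected, COL1A1 at 8.89 TPM, and of 2 matched endothelial markers 0 were. The fibroblast marker COL3A1, at 0.95 and 1.63 TPM, fell under the limit of 1 TPM in replicate 1 only. The part that other cell types might play in the levels below was not tested.

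Sequence decides how well reads of 50 bases can be assigned to RRN3, because segments of chromosome 16 hold partial copies of this gene. The coding exon 13 of RRN3 and its counterparts in RRN3P1, RRN3P2 and RRN3P3 are printed here since it is the exon, among those present in all 3 copies, with the most differences. The sequences are from GRCh37, in the direction of transcription, and capitals mark the 5 positions of 131 at which any of them differs. RRN3 lies at chr16:15164978-15165108 on the minus strand, RRN3P1 at chr16:21812028-21812158 on the minus strand, RRN3P2 at chr16:29107452-29107582 on the plus strand and RRN3P3 at chr16:22447003-22447133 on the minus strand.
RRN3: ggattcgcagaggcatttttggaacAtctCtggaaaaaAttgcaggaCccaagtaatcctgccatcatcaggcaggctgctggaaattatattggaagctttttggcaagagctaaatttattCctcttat
RRN3P1: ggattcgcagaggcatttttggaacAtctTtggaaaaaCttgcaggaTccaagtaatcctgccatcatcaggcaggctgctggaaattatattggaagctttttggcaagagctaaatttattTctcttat
RRN3P2: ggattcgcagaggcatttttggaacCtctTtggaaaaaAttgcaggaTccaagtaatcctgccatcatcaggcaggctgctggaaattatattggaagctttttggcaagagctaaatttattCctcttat
RRN3P3: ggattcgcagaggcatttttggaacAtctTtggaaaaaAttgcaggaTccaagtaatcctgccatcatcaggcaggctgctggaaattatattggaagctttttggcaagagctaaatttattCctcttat
RRN3P1 differed from RRN3 at 4 positions of this exon, RRN3P2 at 3 and RRN3P3 at 2. In all 4 sequences the stretch before the last of the marked positions was the same and was longer than a read.

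The level of the polymerase subunits was measured first. POLR1A (ENSG00000068654, chr2:86247339-86333278, minus strand), which encodes the largest subunit, had 55.8 TPM in replicate 1 and 40.8 TPM in replicate 2. POLR1B (ENSG00000125630, chr2:113299492-113337395, plus strand), for the second-largest subunit, had 56.0 and 60.9 TPM. POLR1C (ENSG00000171453, chr6:43477440-43530156, plus strand) had 68.1 and 57.8 TPM. Replicate 1 was thus the higher library for POLR1A and POLR1C and the lower one for POLR1B. POLR1E (ENSG00000137054, chr9:37485945-37503694, plus strand) had 38.9 and 41.7 TPM, and the means of these 4 genes differed by at most 1.56-fold.

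On the TPM scale the SL1 genes held both the highest and the lowest of the 10 levels, and UBTF or POLR1A stood above them per longest transcript or in counts. TAF1D (ENSG00000166012, chr11:93463114-93517557, minus strand) had 164 and 157 TPM. TAF1C (ENSG00000103168, chr16:84211453-84220676, minus strand), at 41.0 and 41.3 TPM, was close to the polymerase subunits. TAF1B (ENSG00000115750, chr2:9983572-10074545, plus strand), whose protein resembles the general factor TFIIB, had 21.7 and 25.9 TPM. TAF1A (ENSG00000143498, chr1:222731244-222763275, minus strand) had 14.5 and 14.4 TPM, below the 3 other SL1 genes in both libraries. The ratio of TAF1D to TAF1A on the TPM scale was 11.3 in replicate 1 and 10.9 in replicate 2, or 11.1 ± 0.248 (SD, n = 2). TAF1D exceeded TAF1C by 3.90 ± 0.126-fold and TAF1C exceeded TAF1A by 2.85 ± 0.0282-fold in TPM (SD, n = 2). TBP, the remaining subunit of SL1 and shared with the factors of the other polymerases, had 31.5 and 34.2 TPM, between TAF1C and TAF1B.

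The other promoter factors lay apart from each other. UBTF (ENSG00000108312, chr17:42282401-42298994, minus strand) had 93.8 and 87.3 TPM and was second only to TAF1D among the 10 genes on this scale. RRN3 (ENSG00000085721, chr16:15153890-15188168, minus strand) had 40.4 TPM in both libraries. UBTF exceeded RRN3 by 2.24 ± 0.114-fold in TPM (SD, n = 2).

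**Figure D1:**
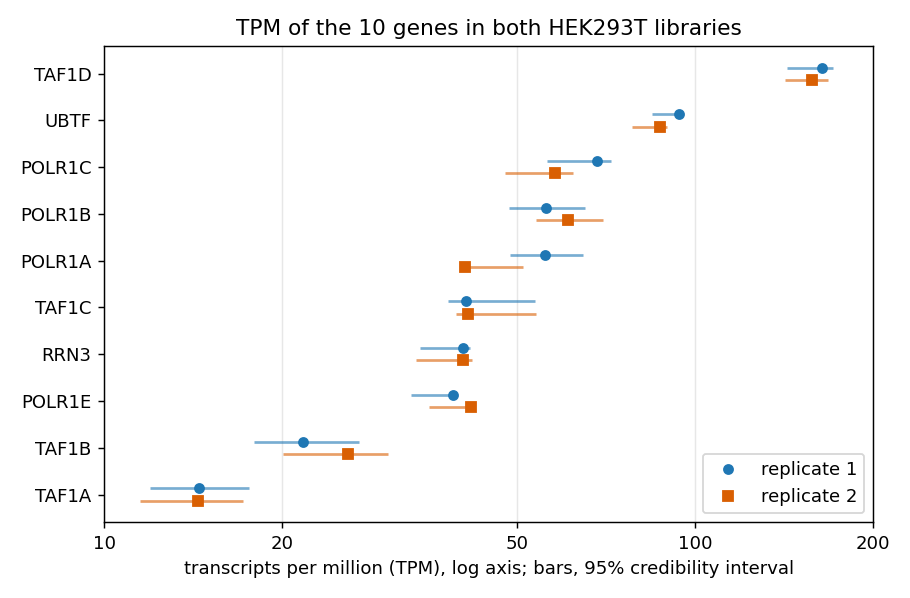
TPM (log axis) of each of the 10 genes in replicate 1 (circles) and replicate 2 (squares) of HEK293T cells, with the deposited 95% credibility interval of each value as a bar. TAF1D and UBTF stand clear at the top and TAF1B and TAF1A at the bottom, while neighbours among the 6 genes between them have overlapping bars in at least 1 replicate.

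Ordered by mean TPM, the genes were TAF1D, UBTF, POLR1C, POLR1B, POLR1A, TAF1C, RRN3, POLR1E, TAF1B and TAF1A. Neighbours were called apart when neither their replicate ranges nor their deposited 95% intervals overlapped. By this rule 4 of 9 neighbour pairs were apart, namely TAF1D above UBTF, UBTF above POLR1C, POLR1E above TAF1B and TAF1B above TAF1A. The other 5 pairs, from POLR1C down to POLR1E, were not apart, although the replicate ranges alone were separate for POLR1B over POLR1A and for TAF1C over RRN3. Among all 45 pairs of the genes, 34 were apart. With 2 values a gene no exact permutation test could give a p under 0.333, so no test between genes was made.

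All 10 genes had a TPM of at least 1 in both libraries, the rule for detection. By the same rule 27.7% of all genes were detected, and 63.7% of 19391 protein-coding genes. The median of the 10 mean levels was 44.7 TPM, beside 14.7 TPM for 15997 detected genes and 21.2 TPM for 12345 detected protein-coding genes. Of the 10 genes 9 were above the latter median. TAF1D was at the 94.3rd percentile of the detected protein-coding genes, UBTF at the 87.8th, TAF1B at the 53.7th and TAF1A at the 38.7th.

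These levels rest on a correction for transcript length, and the order of the top genes depended on it. TPM divides each gene's count by the abundance-weighted mean length of its transcripts, which was 1169 and 1283 bases for TAF1D and 2933 and 2897 bases for UBTF. The annotated transcripts of TAF1D ran from 334 to 4358 bases. In estimated counts TAF1D had 1368 and 1396 and UBTF 2019 and 1786, so UBTF was the higher of the 2 before any correction. When counts were divided by the longest annotated transcript and scaled to the same total as TPM, UBTF led with 90.5 and 82.3 and TAF1D followed with 70.3 and 73.8. TAF1A and TAF1B stayed the lowest of the 10 genes on that scale, at 14.9 and 13.9 for TAF1A and 19.9 and 18.4 for TAF1B. The highest gene was then 5.98-fold above the lowest instead of 11.1-fold.

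**Figure D2:**
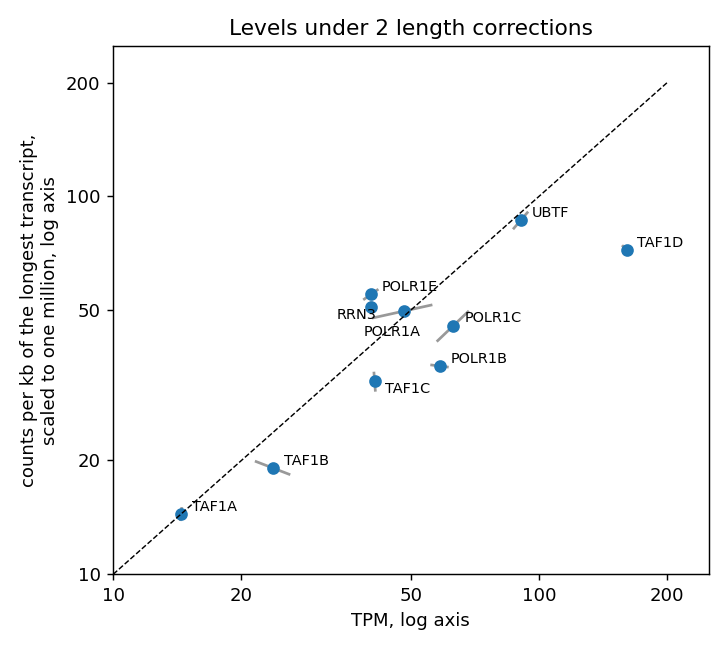
Mean TPM of each gene (horizontal, log axis) against its mean count per kilobase of its longest annotated transcript, scaled to the same total as TPM (vertical, log axis), with a grey line joining the values of both replicates and a dashed line at equality. TAF1D lies farthest under the dashed line, and POLR1A spreads along the TPM axis much more than along the other.

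The catalytic subunits were compared with those of the other polymerases, since each enzyme holds a single copy of its largest and second-largest subunit. POLR1A over POLR1B in TPM was 0.997 in replicate 1 and 0.670 in replicate 2, or 0.833 ± 0.231 (SD, n = 2). POLR2A over POLR2B was 1.41 ± 0.150 and POLR3A over POLR3B was 1.43 ± 0.179 (SD, n = 2). The replicate values of the polymerase I ratio did not overlap those of either other ratio, which were 1.516 and 1.304 for polymerase II and 1.555 and 1.301 for polymerase III. With 2 values each this was not tested. Per longest transcript POLR1A over POLR1B was instead 1.39 ± 0.0645, between 1.24 ± 0.0295 for polymerase III and 1.74 ± 0.0632 for polymerase II (SD, n = 2). In estimated counts POLR1A had 2871 and 2584 and POLR1B had 1202 and 1155, a count ratio of 2.39 and 2.24.

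Whether the libraries differed by more than read sampling was tested on rounded estimated counts with an exact two-sided binomial test, Benjamini-Hochberg adjusted over 17920 genes. The test compares these libraries and not conditions. Of all genes tested, 3.86% differed at an adjusted p under 0.05, and 0 of the 10 genes did. UBTF and POLR1C had an unadjusted p under 0.05 and were higher in replicate 1. For POLR1C, counts of 540 and 440 gave a log2 difference (replicate 2 against 1) of -0.22, with a 95% counting interval of -0.40 to -0.03, exact p = 0.0196 and binomial adjusted p = 0.226. For UBTF the log2 difference in counts was -0.10, with an exact p of 0.0336 and a binomial adjusted p of 0.305. The median absolute log2 difference of the 10 genes was 0.10 in TPM and 0.10 in counts, beside 0.16 and 0.11 over all detected genes.

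In 2 genes the replicates lay much farther apart in TPM than in counts. POLR1A had the largest difference in TPM between the replicates among the 10 genes, a log2 difference of -0.45, whereas its log2 difference in counts was -0.08 with a counting interval of -0.15 to 0.00. Its mean transcript length was 6949 bases in replicate 1 and 8867 bases in replicate 2, which is 1.28-fold. TAF1B had a log2 difference of 0.26 in TPM and of -0.07 in counts, from 201 and 181 reads, and its mean length was 1292 and 1022 bases. These 2 genes were the only ones of the 10 whose mean length differed by at least 1.2-fold, a limit set after their values were seen. Over all detected genes 12.2% passed this limit. POLR1F, another subunit gene of polymerase I, had 43.5 and 34.6 TPM with 687 and 716 counts, and lengths of 2165 and 2933 bases. The part of the transcript length in these TPM differences was not tested.

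**Figure D3:**
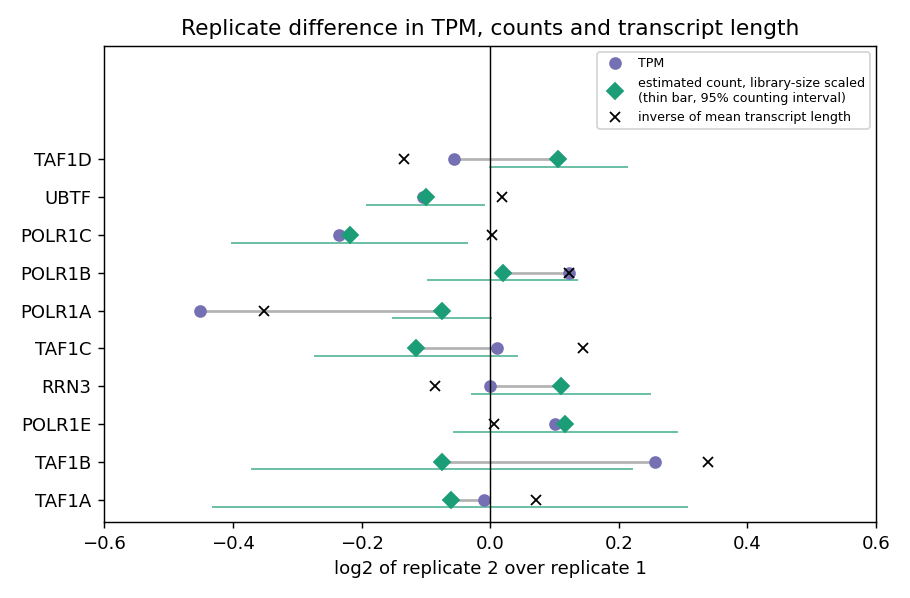
Log2 of replicate 2 over replicate 1 for each gene in TPM (circles) and in library-size scaled estimated counts (diamonds, with the 95% counting interval as a thin bar), and the inverse of the mean transcript length ratio (crosses). The counts of all genes lie between -0.22 and 0.12, while the TPM of POLR1A reaches -0.45 and that of TAF1B 0.26, each on the side of its cross.

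Copies and overlapping genes limit how firmly a count can be given to a gene. RRN3 has 18 coding exons of 1953 bases in all. Each was slid without gaps along the annotated intervals of the 3 copies on chromosome 16, and an exon was called present at an identity of at least 90%. Bases outside these intervals were not searched. RRN3P2 held 14 of the exons, 6 of them identical, RRN3P1 held 12 and RRN3P3 held 4. Together they covered 15 exons and 1524 bases, which leaves the coding exons 11, 12 and 18 with 429 bases found in none of these intervals. Below the limit, exon 7 reached 73.4% in RRN3P2 and exon 1 reached 73.0% in RRN3P1. Whether these exons are present there with a gap was not tested. The identity over the exons present was 98.8%, 98.7% and 98.4% for RRN3P2, RRN3P1 and RRN3P3.

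**Figure D4:**
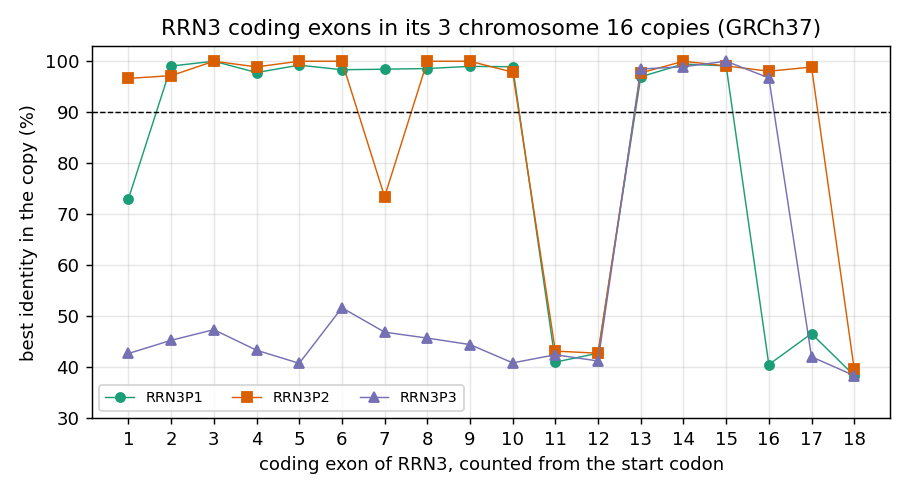
Best ungapped identity of each of the 18 coding exons of RRN3 (horizontal, from the start codon) in the annotated intervals of RRN3P1, RRN3P2 and RRN3P3 on chromosome 16 (vertical, percent), with a dashed line at 90%. The exons 11, 12 and 18 fall below the line in all 3 copies and the exons 13, 14 and 15 lie above it in all 3.

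Despite this likeness, few counts were given to the copies. RRN3 had 821 and 840 estimated counts. RRN3P3 had 91.2 and 74.7, RRN3P1 had 39.6 and 42.5, and RRN3P2 had 1.88 and 10.3. RRN3P4, a processed copy on chromosome 2, had 0 in both libraries, which allows up to 3 counts in each. With the counts of RRN3P1 to RRN3P4 added, the count of RRN3 would be 15.7% greater. The deposited posterior SD of the RRN3 count, which measures uncertainty in sharing out reads, was 5.66 and 6.02 counts, or 0.689% and 0.717% of the count. For the copies it was larger beside their counts. It was 3.19 and 4.69 for RRN3P2, 3.30 and 3.15 for RRN3P1 and 5.53 and 5.12 for RRN3P3. Among the 10 genes this SD was at most 0.761% of the count, and 5 genes had whole counts in both libraries. The 10 UBTF-like copies held 1 count in all in each library.

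How many windows of read length a gene shares with other genes was counted over all its annotated transcripts, on either strand. RRN3 shared 25.4% of its 4183 distinct windows of 50 bases, 852 of them with RRN3P2 and 517 with RRN3P1. Transcripts annotated at the same loci shared 828 (ENSG00000284671, which overlaps RRN3P2) and 561 (ENSG00000291066, which overlaps RRN3P1), and neither has a row in the tables used here. CDR2, whose annotated locus spans RRN3P3, shared 261 windows and had 396 and 356 counts. POLR1C shared 13.1%, with 345 windows shared with the antisense lncRNA ENSG00000271754 and 204 with XPO5, a nuclear export factor for small RNA on the opposite strand of the same locus. TAF1D shared 8.33%, and the shares were 5.38% for TAF1C, 3.50% for TAF1A, 2.71% for UBTF, 1.15% for POLR1B and 0.509% for POLR1A. POLR1E and TAF1B shared none.

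The TAF1D locus is a host of small RNA genes. In GRCh37 it overlapped 13 annotated genes, of which 8 encode small nucleolar RNAs (snoRNAs) that lie on its own strand and belong to the class that guides rRNA modification. Of these 3 had any count, with SNORA18 at 2.26 and 11.7, SNORA8 at 0 and 3.51 and SNORA25 at 0.53 and 0.03. Together they held 2.79 and 15.3 counts beside 1368 and 1396 for TAF1D. Mature snoRNAs lack a poly(A) tail. Some genes that overlap a member on the opposite strand were well expressed, and others held few counts. XPO5 had 124 and 108 TPM beside POLR1C, PDXDC1 had 81.1 and 69.9 TPM beside RRN3, and MED17, a Mediator subunit gene, had 65.2 and 54.9 TPM beside TAF1D. CEP295, also opposite TAF1D, had 32.0 and 28.1 TPM and shared 134 windows of 50 bases with it, the most of any gene. The sources used here do not say if reads were counted by strand, so reads from the overlapping parts cannot be told apart on this basis.

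The 10 genes were then set beside other genes of the same machinery. All 4 further polymerase I subunit genes were detected, with a median of 37.3 TPM. POLR1D, which pairs with POLR1C, was the highest at 101 ± 4.92 TPM and POLR1H the lowest at 19.8 ± 0.361 TPM (SD, n = 2). The 5 subunits shared by the nuclear polymerases had a median of 159 TPM, from 55.1 TPM for POLR2K to 220 TPM for POLR2E. The polymerase II subunit genes had a median of 101 TPM (7 of 7 detected) and those of polymerase III 42.2 TPM (9 of 9 detected). POLR2A exceeded POLR1A by 3.53 ± 0.509-fold in TPM, whereas POLR1A over POLR3A was 1.08 ± 0.0936 (SD, n = 2). In TPM the largest-subunit genes of polymerases I and III were thus closer to each other than either was to POLR2A in both libraries.

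Among 7 other factors of rDNA transcription and chromatin, all were detected, with a median of 32.9 TPM. TCOF1, whose product treacle acts with UBF in the nucleolus, was the highest at 176 ± 13.3 TPM, and CAVIN1, first described as a transcript release factor, was the lowest at 7.14 ± 0.247 TPM (SD, n = 2). The transcription terminator TTF1 had 17.8 and 17.1 TPM. The 3 genes of TFIIIB, the initiation factor of polymerase III, had a median of 23.2 TPM. In these lists 4 genes differed between the libraries in the exact binomial test, which are POLR2L, TCOF1 and POLR2A, higher in replicate 1, and POLR2J, higher in replicate 2. They were 1 of 5 shared subunits, 1 of 7 rDNA factors and 2 of 7 polymerase II subunits, beside 3.86% of all genes. For POLR2J, counts of 470 and 555 had a posterior SD of 19.9 and 20.1. The test leaves out this uncertainty in sharing out reads. POLR2A, with 8433 and 7487 counts, had a log2 difference of only -0.09, and its binomial adjusted p was 0.00227.

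**Figure D5:**
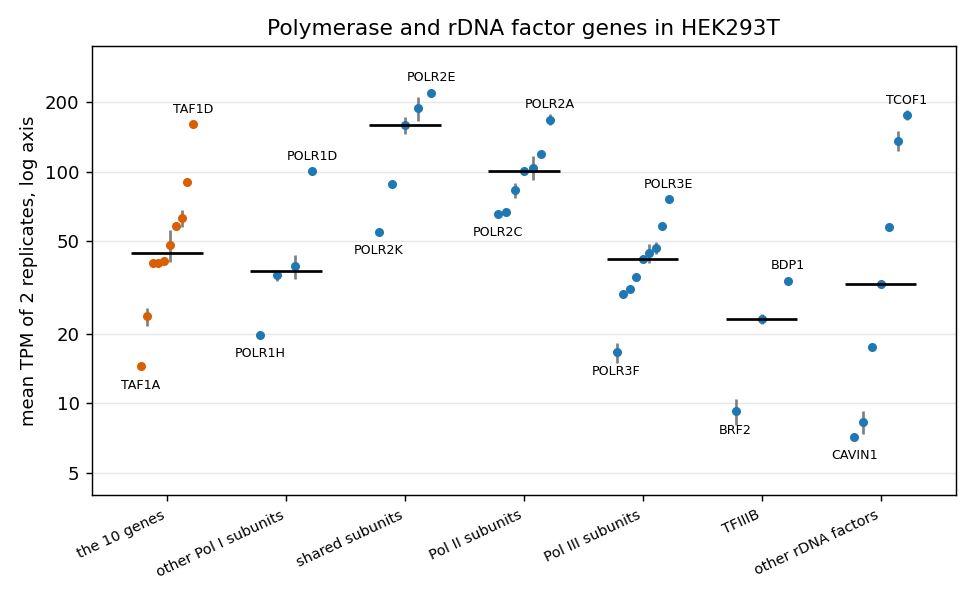
Mean TPM of 2 replicates (log axis) for the 10 genes and 6 lists of related genes, with a grey line from the lower to the higher replicate and a black line at each list's median. The medians run from 23.2 TPM for TFIIIB to 159 TPM for the shared subunits, and that of the 10 genes is 44.7 TPM.

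Features of the promoters that the choice of genes did not use were read from RefSeq sequences on GRCh38.p14, 250 bases before to 50 after a start. Starts were found for 9 of the 10 genes, all but POLR1E. The motif CCGGAAG, bound by factors of the ETS family, was present on either strand in 7 of these 9, namely POLR1B, POLR1C, RRN3, TAF1A, TAF1B, TAF1C and TAF1D. It was present in 10.3% of 35116 promoters and, counted by gene, in 22.7% of 10020 detected protein-coding genes. The GC box GGGCGG was present in 4 of 9 and in 78.7% of the detected genes, and the motif CCAAT in 4 of 9 and 43.9%. The letters TATAAA and CACGTG were in none of the 9 promoters and in 8.39% and 12.9% of the detected genes. These matches are a description of the letters in these windows.

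The bases before the start of POLR1C, which held the most matches to CCGGAAG, and of TAF1D, the gene of the highest TPM, are printed with the matches in capitals. POLR1C is at chr6:43516839-43517088 on the plus strand and TAF1D at chr11:93741496-93741745 on the minus strand, both in GRCh38.p14.
POLR1C: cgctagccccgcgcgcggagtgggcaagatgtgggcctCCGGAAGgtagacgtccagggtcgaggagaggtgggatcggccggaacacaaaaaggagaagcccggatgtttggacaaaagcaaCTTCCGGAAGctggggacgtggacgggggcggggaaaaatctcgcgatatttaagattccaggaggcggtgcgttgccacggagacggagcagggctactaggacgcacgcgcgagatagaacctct
TAF1D: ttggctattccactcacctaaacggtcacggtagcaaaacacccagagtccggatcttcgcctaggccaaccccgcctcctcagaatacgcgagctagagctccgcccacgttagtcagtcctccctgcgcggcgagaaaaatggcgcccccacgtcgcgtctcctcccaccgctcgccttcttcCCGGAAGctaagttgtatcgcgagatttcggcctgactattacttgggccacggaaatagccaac
In POLR1C matches began at positions -212, -127 and -124 from the start, the latter pair overlapping on opposite strands. In TAF1D the match began at position -65.

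Some of the genes face a neighbour. The starts used here were chosen after seeing the data. From the start of each gene's Ensembl canonical transcript on GRCh37, a gene on the opposite strand began within 1000 bases of 4 of the 10 genes, beside 32.3% of 12345 detected protein-coding genes. PTCD3, for a mitochondrial ribosome protein, began 349 bases from POLR1A and had 120 and 119 TPM, above POLR1A in both libraries. YIPF3 began 163 bases from POLR1C and had 59.4 and 54.2 TPM, less than POLR1C in each. C11orf54, 177 bases from TAF1D, had 9.32 and 9.11 TPM and TAF1A-AS1, 5 bases from TAF1A, had 0.96 and 1.59 TPM. From the outermost annotated start of each gene, 6 of the 10 genes had such a neighbour, beside 35.1% of the detected genes, and the neighbours of POLR1C and TAF1D were then other genes, since their outermost starts lay 7387 and 42896 bases away from the canonical ones.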

How the data were processed

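Poly(A)+ RNA of HEK293T cells was sequenced in 2 libraries that the labels place in 1 group. Per the submitters' processing notes, Trimmomatic 0.36, STAR 2.6.1c and RSEM 1.3.1 were used with GRCh37. The study's methods name featureCounts and Ensembl release 87, whereas the deposited columns are those of RSEM and were read as such. Estimated counts were deposited by the authors as reads per gene, with reads that match several genes shared out. TPM values as deposited are scaled by the weighted transcript length and to a common total. FPKM values were deposited too and used only as an alternative. The authors also deposited, as scores, a posterior SD for each count and a 95% interval for each TPM. A pooled table of both libraries was used only for checks.

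The members and lists were chosen with earlier results of these data known. The text names the 10 members, of each list its highest and lowest gene and any that differed between the libraries, and the copies, overlapping genes and neighbours of members. Other list genes, such as POLR1F, TTF1 and TBP, were named after their values were seen. Symbols and coordinates came from GENCODE release 44 on GRCh37, which matched 96.1% of gene identifiers. Rounded counts of the libraries entered an exact two-sided binomial test (scipy 1.17.1) against library sizes scaled by TMM (edgeR 4.0.16), Benjamini-Hochberg adjusted over all genes whose counts summed to 10 or more. The test was checked on simulated counts that varied by read sampling alone, so the check does not cover error in sharing out reads. The counting intervals were computed from the rounded counts and cover counting error only. The reads carry no molecular identifiers. No column of the tables was left unmatched. A further list of cell type markers is not reported here. Alternatives were other units, filters, scalings and single libraries.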

Additional observations from a re-analysis of the deposited data

How the results depend on the processing

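The 10 genes stayed detected under each limit and in each library taken alone, except that 9 passed a TPM of 20, a limit added after seeing the data. None of them differed between the libraries under RLE scaling, total counts, other filters or posterior mean counts. With RLE scaling 696 and with total counts 704 of 17920 genes differed, beside 692 in the test reported. With posterior mean counts it was 446 of 18205. Without the filter on low counts it was 563 of 30700, and at a summed count of 100 or more 503 of 11885. Among genes with whole counts only, 69 of 8675 differed, and 5 of the 10 genes could be tested. The median level was 31.6 in FPKM and 64.1 in TPM rescaled over protein-coding genes. The highest gene exceeded the lowest by 10.8-fold in posterior mean TPM, 5.98-fold per longest transcript and 21.8-fold in raw counts, where the highest genes were TAF1D, UBTF and POLR1A. POLR1A over POLR1B was 1.39 per longest transcript and 2.31 in counts, above 1 unlike the 0.833 in TPM, and without either replicate it was 0.670 to 0.997. Per longest transcript 7 neighbour pairs had separate replicate ranges, beside 6 in TPM and 4 when intervals were required too; both counts were added after seeing the data. With windows of 30 bases the median share of shared windows was 5.54%, beside 3.11% at 50. The mean RRN3 count was 961 with its copies added and 831 without. Compared with a pseudocount of 1, those of 0.1 and 0.01 shifted each of the 20 log2 differences by less than the usual replicate difference. No paired analysis was possible because there is just 1 group. The library totals leave TAF1A with 131 and 119 counts, the fewest of the 10 genes.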
